A study of Mus musculus with 6 samples.

Results

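The cells described here are collagen-producing stromal cells, fibroblasts and mesothelial-like cells, of orthotopic mouse pancreatic tumours that were profiled by single-cell RNA sequencing. A droplet barcode was counted as a cell when it held at least 500 unique molecular identifiers (UMIs, each standing for 1 captured transcript), over 200 genes and under 10% mitochondrial UMIs. A cell was then selected on measured values: at least 10 UMIs of the type I collagen genes Col1a1 and Col1a2 together, at least 2 UMIs of elastin (Eln) and fibulin-2 (Fbln2) together, at most 1 UMI of Gm49504, which is abundant in the injected cancer cells, no UMI of the leukocyte gene Ptprc or the endothelial gene Pecam1, and under 1% of its UMIs from the neutrophil genes S100a8 and S100a9. The rule found 407 cells among 74546. OE-Vector 1 gave 47 of 15382 cells, and OE-MLKL 1, 2 and 3 gave 161 of 18467, 107 of 23063 and 92 of 17634.

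The tumours were grown from a KPC line, pancreatic cancer cells of mice that carry mutant Trp53 in Pdx1-expressing tissue (Trp53 R172H and Pdx1-Cre), injected into the pancreas of C57BL/6 mice aged 6 to 8 weeks. In the OE-MLKL group the injected cells overexpressed Mlkl, the pore-forming executioner of necroptosis, from an introduced construct, and in the OE-Vector group they carried the control vector. Tumours were taken 4 weeks after injection, and both groups therefore share the KPC alleles, the host strain and the time point. The construct was carried by the injected cells and not by the mice. The labels give 3 samples per group, of which OE-Vector 1 and OE-MLKL 1, 2 and 3 are described, while OE-Vector 2 and 3 were not analysed here. Every comparison of the groups thus sets 1 library against 3, and the OE-Vector group and its single library cannot be told apart.

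Fibroblasts build and remodel the extracellular matrix: they secrete fibrillar collagens, elastic fibre proteins, proteoglycans and matricellular glycoproteins, together with chemokines, complement proteins and growth factors. Mesothelial cells are the flat lining of the peritoneum, the pleura and the surface of the pancreas. They carry keratins and the transcription factor Wt1 beside surface proteins such as mesothelin and uroplakins, and they can take on fibroblast features. In pancreatic tumours cancer-associated fibroblasts (CAFs) are commonly sorted into contractile myofibroblastic, cytokine-secreting inflammatory and MHC class II-bearing antigen-presenting kinds, the last of which has been linked to the mesothelium.

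The files hold raw UMI counts of 32285 genes, and library totals ran from 150591289 to 169978362 UMIs. The 407 cells held 4976099 UMIs, of which OE-Vector 1 gave 763192 and the OE-MLKL libraries gave 1864708, 865480 and 1482719. Median UMIs per cell were 12438, 10206, 6112 and 14741 in the same order, so the cells of OE-MLKL 2 were the shallowest. Levels below are CPM, the UMIs of a gene scaled to the same total after summing over the stromal cells of a library. They are tags of transcript 3′ ends and do not grow with transcript length, and values in a row run from OE-Vector 1 to OE-MLKL 1, 2 and 3. Cells of 1 tumour share their source, so the library is the replicate throughout. No barcode was shared between the stromal cells of any pair of libraries, and 5 stromal barcodes were also cells of another library, where each pair shared between 73 and 134 cell barcodes. Doublets had not been removed, and a doublet score would have removed 3 of 47, 24 of 161, 11 of 107 and 6 of 92 stromal cells.

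The genes of the rule are given as description only. A stromal cell held a median of 141, 41, 43 and 135.5 collagen I UMIs and of 15, 8, 10 and 22.5 elastin and fibulin-2 UMIs, so both quantities were lower in OE-MLKL 1 and 2 than in the remaining pair of libraries. Decorin (Dcn), a collagen-binding proteoglycan that is listed as a marker of these cells but was not used to choose them, had a median of 60, 39, 26 and 36 UMIs per cell and was detected in 87.2%, 99.4%, 97.2% and 93.5% of them. Just inside the thresholds lay 33 cells with 10 to 14 collagen UMIs, 61 cells with 2 or 3 UMIs of elastin and fibulin-2 and 34 cells with 1 UMI of Gm49504. Just outside lay 38 cells with 5 to 9 collagen UMIs, 28 with 1 UMI and 28 with no UMI of elastin and fibulin-2, and 61 with 2 or more UMIs of Gm49504.

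Fibroblast markers that the rule did not use were high in every library. Col3a1, the type III collagen chain, was measured at 8547, 2930, 4118 and 7674 CPM. Lumican (Lum), which spaces collagen fibrils, was at 580.5, 575, 768 and 666 CPM, against a mean of 8.59 CPM in cells gated as KPC cancer cells by Gm49504 and 7.53 CPM in cells gated as macrophages. Pdgfra, the platelet-derived growth factor receptor that marks fibroblasts, was at 144, 306, 218 and 335 CPM and was detected in 77.6% of the cells. Wt1, a transcription factor of the mesothelium and of mesothelium-derived fibroblasts, was at 242, 195, 165 and 248 CPM and was detected in 71.7% of the cells, while its mean was 0.75 CPM in cancer-gated and 2.77 CPM in macrophage-gated cells. Markers outside the rule thus bore out the label of fibroblast and mesothelial-like cells.

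Markers of other cell types were low but not absent. The 10 macrophage genes summed to 459, 549, 707 and 616 CPM in stromal cells, and to between 3444 and 6607 CPM in the free RNA of barcodes with at most 100 UMIs. The 8 Schwann cell genes summed to 99.6, 48.3, 39.3 and 47.9 CPM, and Sox10, which defines that lineage, stood at 9.17 CPM in OE-Vector 1 and at 0 in the OE-MLKL libraries. The 9 endothelial genes summed to 62.9, 115, 104 and 91.0 CPM, against 5673 to 7682 CPM in cells gated on endothelial genes and 31.9 to 99.8 CPM in free RNA. Most of the OE-MLKL 1 sum was the growth factor receptor Kdr (7.86, 96.5, 35.8 and 46.5 CPM), while Cdh5, the endothelial cadherin, was at 0 in all libraries. Pecam1, a member of this list, was set to 0 by the rule. The 10 acinar genes summed to between 15.5 and 80.4 CPM. The 12 pericyte and smooth muscle genes summed to 405, 227, 659 and 498 CPM, against 80.1 to 116 CPM in free RNA, and within them Rgs5, a pericyte gene, was at 0, 0.536, 5.78 and 0 CPM. The 8 lymphocyte genes summed to 66.8, 26.3, 39.3 and 514 CPM, and of the last value 499.8 CPM were Igkc, an immunoglobulin light chain. Krt8 and Krt18, keratins of both cancer and mesothelial cells, were at 89.0 to 218 and at 81.5 to 117 CPM, whereas Epcam, which mesothelium lacks, was at 1.31, 2.68, 4.62 and 16.2 CPM. The part of these other cell types in the levels below was not tested.

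**Figure D1:**
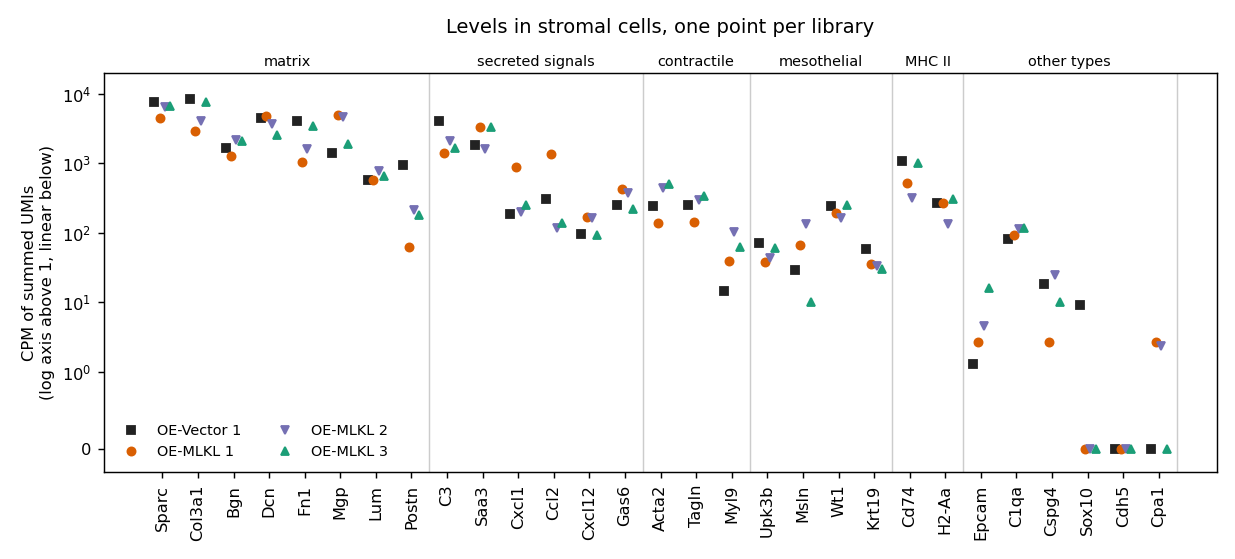
Levels of matrix, secreted, contractile, mesothelial, MHC class II and other cell type genes in the stromal cells, in CPM of UMIs summed per library (log axis above 1, linear below), with 1 point per library and no error bars because a library gives 1 value. Matrix genes such as Sparc (4438 to 7507 CPM) lay far above markers of other cell types such as Cdh5 (0 in every library).

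Transcripts of the Y chromosome separated the stromal cells from the injected cancer cells. Ddx3y, Eif2s3y, Uty and Kdm5d, broadly expressed Y-linked genes that the rule did not use, summed to 149, 202, 133 and 191 CPM in stromal cells. In cancer-gated cells the sum was 3.61, 3.1, 3.66 and 6.26 CPM, while macrophage-gated cells had 142, 144, 140 and 164 CPM and endothelial-gated cells 190 to 241 CPM in all but OE-MLKL 2, where they had 126 CPM. Xist, the transcript of the inactive X chromosome, had no UMI in the stromal cells. In cancer-gated cells it was at 0.127, 0.102, 0.136 and 0.321 CPM, so Xist did not separate the classes. The sums over all stromal cells of a library thus lay in the range of macrophage- and endothelial-gated cells and above that of the cancer-gated cells, which is given as a description because the classes were gated on expression. Cells at the edge of the collagen threshold differed between libraries. The stromal cells with 10 to 14 collagen UMIs had Y-linked sums of 0, 190, 100.3 and 0 CPM, from 1, 15, 11 and 6 cells, so the few such cells of OE-Vector 1 and OE-MLKL 3 had no Y-linked UMI. The cells just outside, with 5 to 9 collagen UMIs, had 0, 105, 14.3 and 11.1 CPM.

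Depth sets how often a low transcript is seen, so the shares were also taken at a fixed number of UMIs per cell. Of the stromal cells, 80.9%, 77.6%, 59.8% and 82.6% had at least 1 Y-linked UMI. After each cell had been thinned to 5000 UMIs and shallower cells left out, 42, 136, 70 and 83 stromal cells remained, and 59.5%, 52.9%, 54.3% and 56.6% of them had a Y-linked UMI. At the same depth the shares were 50%, 51.5%, 48.8% and 57.9% in macrophage-gated and 1.82%, 1.58%, 1.69% and 3.31% in cancer-gated cells. Among cells with at least 10000 UMIs, 32 of 211 stromal cells had no Y-linked UMI (15.2%), against 479 of 1915 macrophage-gated (25.0%) and 6985 of 7526 cancer-gated cells (92.8%). By library the share was 12.5%, 12.2%, 35.7% and 11.6% of stromal and 18.1%, 34.3%, 44.3% and 25.2% of macrophage-gated cells, highest in OE-MLKL 2 for both. Stromal cells with 2 or more UMIs of the proliferation genes Mki67 and Top2a, which numbered 9, 8, 12 and 20, had Y-linked sums of 121, 86.9, 46.5 and 137 CPM, below the 166, 211, 158 and 224 CPM of the remaining stromal cells in every library.

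**Figure D2:**
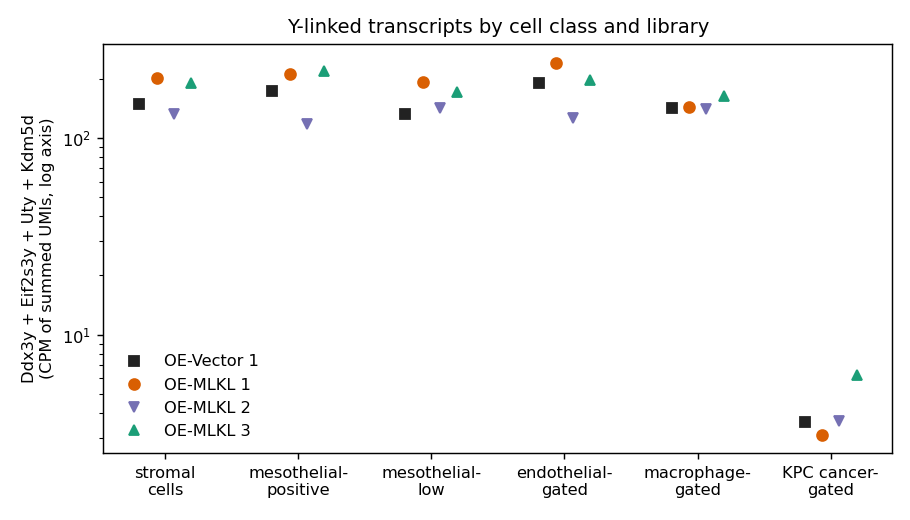
Summed CPM of the Y-linked genes Ddx3y, Eif2s3y, Uty and Kdm5d (log axis) in 6 cell classes, with 1 point per library and no error bars. The stromal cells, at 133 to 202 CPM, lay among endothelial and macrophage-gated cells and above the cancer-gated cells at 3.1 to 6.26 CPM.

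Matrix genes were among the most abundant transcripts of the stromal cells. Of the 20 genes with the highest mean CPM, 4 were matrix genes: Sparc, a collagen-binding matricellular protein, with a mean of 6279 CPM, Col1a2 with 6049, Col3a1 with 5817 and Col1a1 with 4335 CPM, the collagen I genes being rule genes. The others were ribosomal, mitochondrial and other abundant transcripts, led by Malat1 at a mean of 16992 CPM. Dcn was at 4519, 4826, 3649 and 2580 CPM and biglycan (Bgn), its close relative, at 1635, 1290, 2141 and 2064 CPM. Fibronectin (Fn1), which cells assemble into fibrils ahead of collagen, was at 4069.8, 1056, 1616 and 3459 CPM, so OE-MLKL 1 and 2 had the lower levels. Matrix Gla protein (Mgp), an inhibitor of calcification, ran the other way with 1426, 4977, 4588 and 1912 CPM.

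The 7 fibrillar collagen genes, of which the rule used Col1a1 and Col1a2, the largest part of the sum with Col3a1, summed to 21588, 9761, 15583 and 23815 CPM. The 13 other collagens, which include the basement membrane chains Col4a1 and Col4a2 and the microfibrillar Col6a1, Col6a2 and Col6a3, summed to 4245, 987, 2773 and 3479 CPM, and OE-MLKL 1 was lowest. Among collagen-processing genes, the collagen chaperone Serpinh1 was at 1316, 262, 395 and 751 CPM and the procollagen C-proteinase Bmp1 at 380, 374, 535 and 410 CPM. The 21 elastic fibre genes summed to 6067, 2932, 7491 and 5812 CPM, with fibrillin-1 (Fbn1), the microfibril scaffold, at 991, 220, 845 and 927 CPM. Eln, a rule gene, varied widely between OE-MLKL libraries, at 353, 2203 and 272 CPM against 717 CPM in OE-Vector 1. Among matrix proteases and inhibitors, Timp3, which inhibits metalloproteinases from within the matrix, was at 1553, 1668, 1256 and 2520 CPM, and Mmp2, a gelatinase, at 405, 227, 868 and 451 CPM.

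Complement and acute-phase genes had the highest levels among the secreted signals. Complement component C3 was at 4002, 1422, 2083 and 1671 CPM and was detected in 94.8% of the stromal cells, against means of 314 CPM in cancer-gated and 179 CPM in macrophage-gated cells. Serping1, the C1 inhibitor, was at 1049.5, 567, 906 and 785 CPM. Saa3, an acute-phase serum amyloid, was at 1803, 3365, 1600 and 3299 CPM, against a mean of 262 CPM in free RNA. Of the chemokines, the monocyte attractant Ccl2 was at 305, 1372, 118 and 138 CPM, the neutrophil attractant Cxcl1 at 185, 890, 201 and 251 CPM and the B cell attractant Cxcl13 at 6.55, 876, 12.7 and 73.5 CPM. OE-MLKL 1 was the highest library for these chemokines, and the levels of the other OE-MLKL libraries lay near or below that of OE-Vector 1 for Ccl2 and Cxcl1. Cxcl12, a fibroblast product that retains lymphoid and myeloid cells, was more even at 95.7, 168, 164 and 93.1 CPM and had a mean of 0.3 CPM in cancer-gated cells.

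Growth factor ligands were led by Wnt4 at 414, 348, 503 and 576 CPM and by Gas6, the ligand of the receptors Tyro3, Axl and Mertk, at 248, 420, 369 and 219 CPM. Igf1, insulin-like growth factor, was at 478, 96.0, 280 and 364 CPM. Secreted modulators were led by Igfbp4, a binding protein of insulin-like growth factors, at 1512, 680.0, 1439 and 1171 CPM. Il33, an alarmin held in the nucleus, was at 172, 71.3, 114 and 142 CPM. OE-MLKL 1 was the lowest library for Igf1, Igfbp4 and Il33 and the highest for Gas6.

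The mesothelial genes used as a gate below marked a subset of the cells at the limit chosen, whereas Wt1 was detected in most of them, as given above. The comparison was planned between cells with at least 2 UMIs of 7 mesothelial gate genes (Msln, Upk3b, Lrrn4, Upk1b, Nkain4, Muc16 and Bnc1) and under 2 of 7 fibroblast gate genes (Pdgfra, Lum, Dpt, Pi16, Mfap5, Col15a1 and Scara5), and cells with the reverse. Only 0, 4, 6 and 3 cells were mesothelial-gated in this sense, 31, 81, 80 and 55 were fibroblast-gated, 14, 66, 18 and 32 passed both gates, and 2, 10, 3 and 2 passed neither. Most of the selected cells that passed the mesothelial gate therefore also passed the fibroblast gate. The rule had chosen all of them for collagen I and for elastin and fibulin-2, so mesothelial cells without these transcripts could not be among them. The part of the rule and of depth in this overlap was not tested. The planned test needed at least 10 cells of each class in a library and could not be run. After these counts had been seen the cells were instead divided by the mesothelial gate alone into 143 mesothelial-positive cells (14, 70, 24 and 35) and 264 mesothelial-low cells (33, 91, 83 and 57), which is described with no test. With the limit at 1 UMI, 38.3%, 62.7%, 33.6% and 44.6% of the cells would have been positive, so the size of the subset depends on the limit.

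The gate genes, which chose these classes, were led by Nkain4 at 558, 199, 247 and 188 CPM in positive and 6.73, 20.6, 7.49 and 4.80 CPM in low cells. Mesothelin (Msln) is also made by the cancer cells, with a mean of 40.4 CPM in cancer-gated cells. After thinning to 5000 UMIs, 31.0%, 28.7%, 15.7% and 24.1% of the stromal cells had at least 2 UMIs of the gate, against 0.958%, 7.02%, 6.05% and 1.29% of cancer-gated and 0.14% to 0.56% of macrophage-gated cells. The Y-linked sum was 173, 210, 118 and 217 CPM in mesothelial-positive and 132, 192, 142 and 170 CPM in mesothelial-low cells, so both classes carried Y-linked transcripts near the level of macrophage-gated cells. Positive cells were the deeper ones, with median UMIs of 20121, 12950, 12005 and 16186 against 10680, 7779, 5144 and 13068, and the part of depth in this division was not tested.

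Other genes were compared in CPM between the classes within each library, a gene being counted when it was at least 2-fold apart in the same direction in all 4 libraries (10 CPM added to both sides). Of the 3591 genes with at least 50 CPM in either class, 15 were higher in mesothelial-positive cells (0.418%) and 35 were lower (0.975%). The higher genes included mesothelial and epithelial ones. Gpm6a, a membrane glycoprotein of mesothelium and neurons, was at 88.3, 51.1, 42.2 and 78.6 CPM in positive cells and at 0, 4.84, 0 and 0 CPM in low cells. Krt19, a keratin of simple epithelia and mesothelium, was at 123, 60.7, 78.4 and 55.5 CPM against 13.5, 3.63, 5.62 and 9.59 CPM. The tight junction receptor Cxadr was at 558, 312, 320 and 607 CPM in positive cells, and at 53.8, 134, 73.0 and 101 CPM in low cells. Without OE-MLKL 1 the counts were 44 higher and 98 lower, so that library limited them most. Ezrin (Ezr), which links microvilli to actin, and the small heat-shock protein Hspb1 were also among the 15. Gpm6a and Krt19 were the members of the mesothelial list outside the gate that were counted, of 4 with enough counts.

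The genes lower in mesothelial-positive cells included matrix and matricellular genes of fibroblasts. Periostin (Postn), a matricellular protein of activated fibroblasts, was at 0, 4.82, 3.02 and 1.54 CPM in positive cells and at 1619, 133, 348 and 321 CPM in low cells, and was thus almost confined to the latter. Col14a1, a fibril-associated collagen, was at 34.7, 2.89, 12.1 and 4.63 CPM against 724, 55.6, 251 and 551 CPM. Ebf1, a transcription factor of fibroblasts and B cells, was at 0, 1.93, 0 and 0 CPM in positive cells and at 278, 37.5, 238 and 252 CPM in low cells. Col14a1 and Ebf1 were not spread evenly over the low cells, as described below. Mmp2, the Wnt inhibitor Sfrp1, the elastic fibre protein Mfap4, tetranectin (Clec3b), which marks inflammatory and adventitial fibroblasts, and lipoprotein lipase (Lpl) were lower in the same sense. By list, 5 of 15 glycoproteins (Postn, Sparcl1, Nid1, Thbs2 and Tnxb), 3 of 16 signal modulators (Sfrp1, Sfrp2 and Htra3) and 3 of 13 myofibroblastic CAF genes (Postn, Col8a1 and Thbs2) were counted as lower, beside 0.975% of all genes. Median log2 ratios of positive over low cells were -1.23, -0.69 and -1.02 for these lists, against 0.01 over all 3591 genes.

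**Figure D3:**
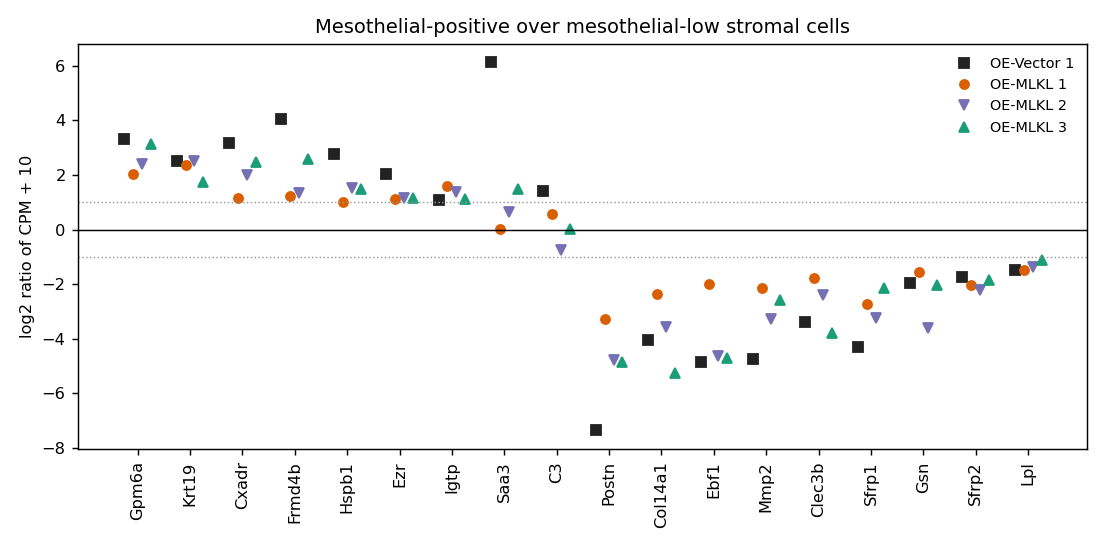
Log2 ratio of CPM (10 CPM added) between mesothelial-positive and mesothelial-low stromal cells for 18 genes, 1 point per library, with dotted lines at a 2-fold difference. Gpm6a and Krt19 lay above and Postn, Col14a1 and Ebf1 below these lines in every library, while Saa3 and C3 had points between the lines.

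Some gene groups leaned one way without being counted. Pdgfra was at 161, 274, 145 and 435 CPM in positive and 132, 346, 264 and 258 CPM in low cells, so the receptor did not separate the classes. Cd74, the MHC class II invariant chain, was at 2393, 641, 398 and 1753 CPM in positive cells and at 166, 368, 272 and 417 CPM in low cells. It was higher in the positive cells of all 4 libraries but by less than 2-fold in OE-MLKL 1 and 2. The 8 measured antigen-presenting CAF genes had a median log2 ratio of 1.65 with none counted, and the 15 measured interferon response genes a median of 0.87 with none counted. Igtp, an interferon-inducible GTPase outside that list, was however among the genes counted as higher. It was at 303, 103, 69.4 and 160 CPM in positive cells and at 137, 27.8, 20.6 and 68.3 CPM in low cells. Cd74 was also abundant in macrophage-gated cells (mean of 5002 CPM) and free RNA (mean of 1210.0 CPM), whose part in these values was not tested.

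The mesothelial-low cells held a further division that the gate did not show. It was set after the values had been seen and is described with no test. With at least 2 UMIs of Dpt (dermatopontin), Postn and Clec3b together as the limit, 28, 25, 59 and 32 of the low cells (144 in all) were at or above it and 5, 66, 24 and 25 (120) were below it. Of the mesothelial-positive cells, 134 were below the limit and 9 at or above it. Postn and Clec3b had been picked from the genes lower in mesothelial-positive cells, so their rarity there is not a further result. Col14a1 was at 1083, 404, 407 and 1189 CPM in low cells at or above the limit, but at 13.4, 0, 9.55 and 2.23 CPM in low cells below it. Ebf1 was at 419, 264, 364 and 487 CPM in the former and at 0, 1.40, 43.0 and 49.1 CPM in the latter. The higher levels of both genes in mesothelial-low cells thus lay mostly in the cells at or above the limit.

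**Figure D4:**
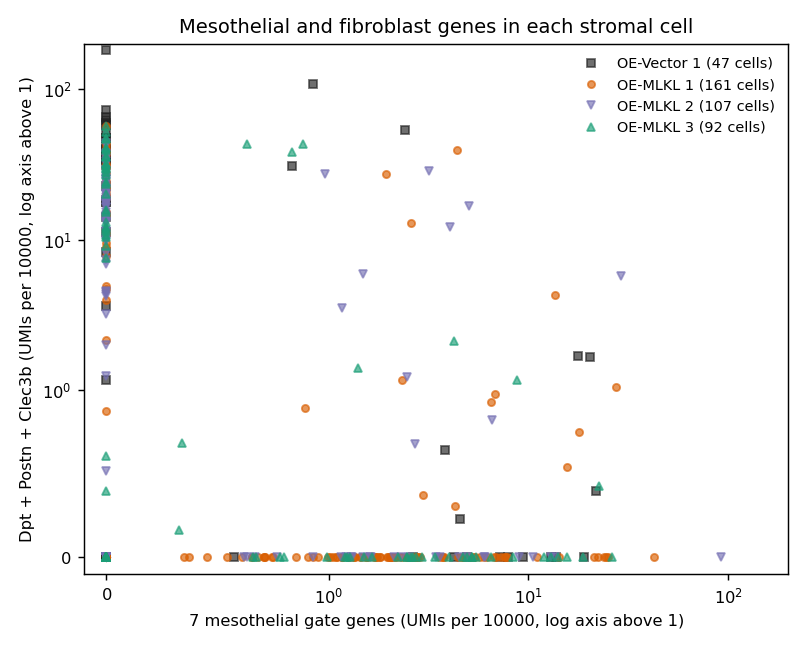
Each of the 407 stromal cells by its UMIs per 10000 of the 7 mesothelial gate genes and of Dpt, Postn and Clec3b together (both axes log above 1, linear below), coloured by library. Most cells lay along 1 axis or near the origin, and 9 cells had at least 2 UMIs of both sets.

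Saa3 levels differed along this division in the OE-MLKL libraries. The limit was on the summed UMIs of Dpt, Postn and Clec3b, so 1 of the 3 genes alone could meet it. In low cells at or above the limit, Saa3 was at 67.5, 35.2, 33.9 and 62.2 CPM. In low cells below it Saa3 was at 20.04, 3890, 3313 and 3381 CPM, and in mesothelial-positive cells below it at 3960, 3479, 2168 and 5405 CPM. In the 9 mesothelial-positive cells at or above the limit it was at 6267, 1562, 202 and 509.5 CPM, so such cells could also be high in Saa3. Within the low cells OE-Vector 1 had the reverse order. The level in the first set was below the free RNA mean of 262 CPM, and the level in the third set was above 2000 CPM in every library. C3 ran the other way within the low cells, at 3341, 3278, 3357 and 2764 CPM at or above the limit and at 401, 778, 1112 and 707 CPM below it. Col3a1, which belongs to both, was at 16103, 7567, 5434 and 17788 CPM at or above the limit and at 3607, 2888, 3785 and 4370 CPM below it. The 5 low cells of OE-Vector 1 below the limit stood apart, with Dcn at 220.5 CPM and a Y-linked sum of 40.1 CPM, and their Saa3 level rests on those few cells. Of the 120 cells, 39 had 1 UMI of the mesothelial gate, 1 short of its limit.

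The groups were compared first by the share of stromal cells, a question that the overexpression of Mlkl in the cancer cells poses for the make-up of the tumour. OE-Vector 1 had a share of 0.306% of filtered cells, and the OE-MLKL libraries had shares of 0.872%, 0.464% and 0.522%. The OE-MLKL mean was 0.619% ± 0.221 (SD, n = 3), 0.314 percentage points above OE-Vector, and OE-Vector 1 was the lowest library. The difference was 0.187 points without OE-MLKL 1, and among cells with at least 5000 UMIs OE-Vector 1, at 0.772%, was not the lowest library (0.694% to 1.44% in OE-MLKL). The two-sided exact permutation test gave p = 0.5, and a design of 1 against 3 libraries cannot go below 0.25. The order of the libraries changed along the steps of the rule. The collagen step alone kept 202 of 15382, 217 of 18467, 177 of 23063 and 229 of 17634 cells. OE-Vector 1 had the highest share at that step, so the direction there was the reverse of that under the full rule. After the elastin and fibulin-2 step 115, 194, 146 and 179 cells were left, and after the Gm49504 step 74, 179, 124 and 163. OE-Vector 1 was the lowest library from the Gm49504 step on. Shares also depend on dissociation and capture, whose part was not tested.

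The make-up of the stromal cells was compared next. Mesothelial-gated cells were 0% of mesothelial- plus fibroblast-gated cells in OE-Vector 1 (0 of 31) and 4.71%, 6.98% and 5.17% in the OE-MLKL libraries, with a mean of 5.62% ± 1.20 (SD, n = 3). The two-sided exact permutation p of 0.25 is the smallest this design can give. Of all 47 stromal cells of OE-Vector 1 none was mesothelial-gated, and the exact binomial interval reached 7.55%, above the OE-MLKL shares of all stromal cells, 2.48%, 5.61% and 3.26%. Mesothelial-positive cells made up 29.8%, 43.5%, 22.4% and 38.0%. The OE-MLKL mean was 34.7% ± 10.9 (SD, n = 3), 4.86 points above OE-Vector 1, which lay within the OE-MLKL range (two-sided exact permutation p = 1). The difference was 0.45 points without OE-MLKL 1, 10.97 points without OE-MLKL 2 and 3.17 points without OE-MLKL 3. Once cells were thinned to 5000 UMIs the direction turned, with OE-MLKL 8.12 points lower (difference of -8.12 points).

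Gene levels were compared with edgeR's quasi-likelihood test on UMIs summed per library, with Benjamini-Hochberg adjustment over 10566 genes. These p-values measure only the spread between these libraries, with 2 residual degrees of freedom per gene that come from the OE-MLKL libraries. The fit also shares this spread between genes, so the spread of a single gene counts only in part, by a degree that differs between alternatives. At an adjusted p of 0.05 a single gene was called (0.00946%), Il1rl1, while 476 genes had an unadjusted p under 0.05, 248 of them higher (2.35%) and 228 lower (2.16%) in OE-MLKL. Il1rl1, the receptor for Il33 (chromosome 1, 40429570 to 40465415, mm10), was at 142 CPM in OE-Vector 1 and at 2.15, 1.16 and 8.77 CPM in OE-MLKL. It was lower in OE-MLKL with a log2 fold change of -5.03 (SE 0.55, edgeR adjusted p = 0.0236). These levels came from 108, 4, 1 and 13 UMIs in 7, 2, 1 and 6 cells. A single cell of OE-Vector 1 held 67 of its 108 UMIs, and its mesothelial-positive cells held 107. Il1rl1 stayed lower in OE-MLKL in every alternative, but 5 of 15 did not pass the threshold. Without that cell the log2 fold change was -3.69 (edgeR adjusted p = 0.149), and with cells thinned to at most 5000 UMIs it was -4.14 (edgeR adjusted p = 0.429). With the scored doublets removed it was -5.36 (edgeR adjusted p = 0.0533), and in cells with a Y-linked UMI it was -4.90 (edgeR adjusted p = 0.0848). Without OE-MLKL 3 it was -6.11 (edgeR adjusted p = 0.689), a setting in which no gene was called, whereas 40 and 56 genes were called without OE-MLKL 1 and 2.

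DESeq2's Wald test on the same sums called 9 genes (0.0852%), of which 7 were lower and 2 higher in OE-MLKL. These genes are named although their values had been seen. Lower beside Il1rl1 were, among others, Postn, Isg15, Spon2, Tesc and Nts, and higher were Mgll and Gm6093. Postn was at 946 CPM in OE-Vector 1 and at 61.7, 216 and 181 CPM in OE-MLKL (edgeR log2 fold change -2.65, SE 0.53, adjusted p = 0.241). OE-Vector 1 thus lay above every OE-MLKL library, as it did for 25.5% of all genes tested. Mesothelial-positive cells held 0 of 722, 5 of 115, 1 of 187 and 1 of 269 Postn UMIs. In mesothelial-low cells alone its log2 fold change was -2.60. The part of the make-up of the stromal cells in the Postn difference was not tested. Isg15, a ubiquitin-like protein induced by interferon, was at 189 CPM against 26.3, 42.8 and 43.8 CPM (edgeR log2 fold change -2.34, SE 0.37, adjusted p = 0.104). Spon2, a secreted matrix protein, was at 241 CPM against 12.3, 42.8 and 46.5 CPM (edgeR adjusted p = 0.151). Mgll, monoacylglycerol lipase, was at 14.4 CPM against 109, 111 and 102 CPM (edgeR log2 fold change 2.91, SE 0.51, adjusted p = 0.151). Of the Nts UMIs in OE-Vector 1, 32 of 33 lay in 1 cell, so this value is that of a single cell. Igfbp2, a binding protein of insulin-like growth factors, had no UMI in OE-Vector 1 and 49.3, 55.5 and 35.1 CPM in OE-MLKL, which is at least 11.9-fold higher against a floor of 3 counts in that library (3.93 CPM). Its edgeR adjusted p was 0.104.

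**Figure D5:**
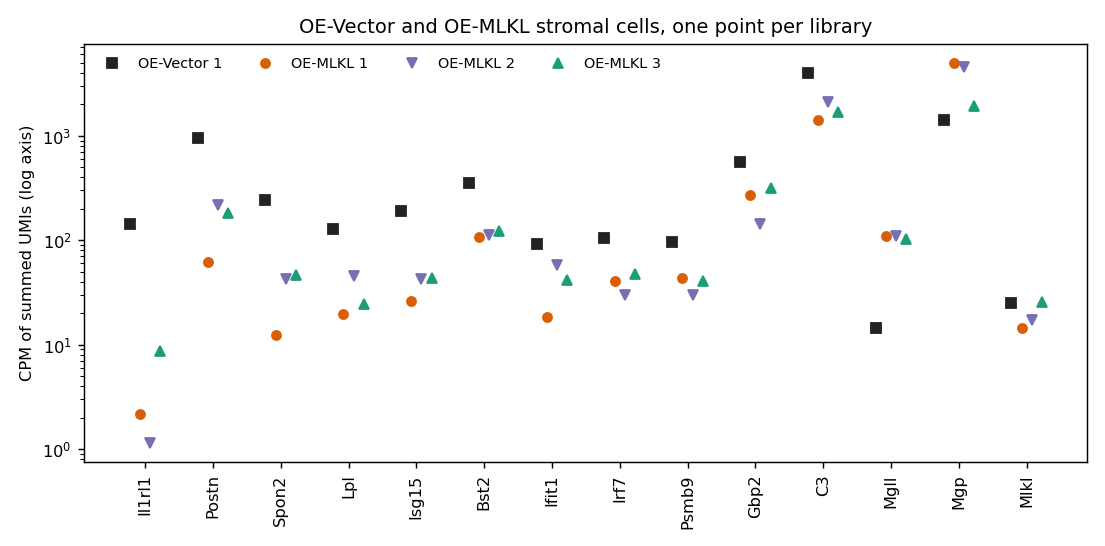
CPM of summed UMIs (log axis) for 14 genes in the stromal cells, with 1 point for each of the 4 libraries and no error bars. Il1rl1, Postn, Spon2, Isg15 and Bst2 were higher and Mgll was lower in OE-Vector 1 than in every OE-MLKL library, and of the 14 genes only Il1rl1 passed the edgeR test. Over all genes tested, OE-Vector 1 lay above every OE-MLKL library for 25.5% and below every one for 24.6%.

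No list held a called gene, and the lists are described by how often OE-Vector 1 lay outside the OE-MLKL range. Over all 10566 genes OE-Vector 1 lay above every OE-MLKL library for 25.5% and below every one for 24.6%, and the median log2 fold change was 0.04. Of the 18 interferon response genes, 15 were above in OE-Vector 1, 8 had an unadjusted p under 0.05 as lower in OE-MLKL (among them Isg15, Ifit1, Irf7, Bst2, Gbp2, Gbp3 and Psmb9), none passed edgeR's adjusted threshold, and the median log2 fold change was -0.95. Isg15 passed in DESeq2 (adjusted p = 0.0296) and in edgeR with at least 20 collagen UMIs per cell (adjusted p = 0.0319). Bst2, a membrane protein that tethers budding viruses, was at 352 CPM against 108, 113 and 123 CPM (edgeR adjusted p = 0.423). The list summed to 9158, 6920, 5105 and 6197 CPM in stromal cells. OE-Vector 1 was also the highest library in cancer-gated cells (6881, 4154, 4219 and 5536 CPM), in macrophage-gated cells (9713, 6973, 6340 and 7429 CPM), in endothelial-gated cells (16465, 11038, 9008 and 8907 CPM) and in free RNA (8275, 4962, 4745 and 5929 CPM). The part of free RNA in the stromal values was not tested. Within the stromal cells the sum was 14217, 8281, 5414 and 8038 CPM in mesothelial-positive and 5559, 5211, 4913 and 4767 CPM in mesothelial-low cells, so OE-Vector 1 stood apart more in the former, which rests on 14 cells in that library and was not tested.

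Of the 12 other collagens tested, 10 were above in OE-Vector 1, with a median log2 fold change of -0.87 and none with an unadjusted p under 0.05. Of 10 complement genes 7 were above (median -0.63), and C3 itself had a log2 fold change of -1.20 (SE 0.50, edgeR adjusted p of nearly 1), or -0.42 in mesothelial-low cells alone. Of 20 elastic fibre genes, which include the rule genes Eln and Fbln2, 8 were above and none below (median -0.53). Of 11 hypoxia genes, glycolytic enzymes and other targets of low oxygen, 5 were below in OE-Vector 1 and none above (median 0.54). Of 11 mesothelial genes, 6 of which are gate genes, 7 were above and 1 below (median -0.59). Of 9 macrophage genes 7 were below, and OE-Vector 1 also had the lowest macrophage sum given above. Of 13 myofibroblastic CAF genes 3 were above and 1 below (median 0.05). Of 13 inflammatory CAF genes 4 were above and 3 below (median 0.56), and among them Saa3 had a log2 fold change of 0.63 (SE 0.62, edgeR adjusted p of nearly 1). For Saa3 it was 1.27 without the cell richest in Il1rl1 and 5.45 in mesothelial-low cells alone (edgeR adjusted p = 0.105). Of the mesothelial-low cells, 28 of 33 in OE-Vector 1 had at least 2 UMIs of Dpt, Postn and Clec3b together. In OE-MLKL 25 of 91, 59 of 83 and 32 of 57 were at or above this limit. Low cells at or above it were low in Saa3 in every library. Low cells below it had Saa3 at 20.04 CPM in OE-Vector 1, from 5 cells, against 3890, 3313 and 3381 CPM in OE-MLKL. The part of the make-up of the low cells in the Saa3 difference was not tested.

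Mlkl, the overexpressed gene, was at 24.9, 14.5, 17.3 and 25.6 CPM in the stromal cells, from 19, 27, 15 and 38 UMIs (chromosome 8, 111311797 to 111338177, mm10). Its log2 fold change was -0.38 (SE 0.48, edgeR adjusted p of nearly 1), and the OE-Vector value lay within the OE-MLKL range. In cancer-gated cells, which carry the construct, Mlkl was at 14.5, 8.41, 12.5 and 19.0 CPM and did not separate the groups either. Whether the construct's transcript ends in the sequence that the 3′ tags count is not given in the sources used here, so these levels do not check the labels, and the groups are named as the libraries are labelled. Of the remaining necroptosis genes, the nucleic acid sensor Zbp1 was at 159, 35.9, 30.0 and 73.5 CPM (edgeR adjusted p = 0.593). Cd47, a surface protein that inhibits phagocytosis, was at 449, 507, 362 and 441 CPM, and its groups overlapped.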

How the data were processed

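Single-cell suspensions of orthotopic tumours were sequenced with 10x Genomics 3′ chemistry, and the values deposited by the authors are unnormalized UMI counts, with no cell annotation. The file headers name Cell Ranger 7.1.0, the submitters' processing notes Cell Ranger 2.1.1 and mm10. How counts were made could shift levels of all libraries alike. The 4 libraries with a matrix were used (OE-Vector 1 and OE-MLKL 1, 2 and 3). The cells and gene lists were chosen with earlier results of these data known.

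Cells were kept at 500 UMIs, over 200 genes and under 10% mitochondrial UMIs, and stromal cells by the rule in the report. Comparator cells were gated at 3 UMIs of Gm49504 (cancer), 10 UMIs of macrophage genes or 2 of endothelial genes. Free RNA is the sum of barcodes with at most 100 UMIs. Doublets were scored per library, and their removal at 0.8% per 1000 cells is an alternative. Counts were summed per library and tested with edgeR 4.0.16 (limma 3.58.1, R 4.3.3; TMM, filterByExpr, quasi-likelihood F-test, Benjamini-Hochberg), with DESeq2 1.42.0 as the alternative, and the scripts were tested on simulated data. Shares were tested by exact two-sided permutation over libraries and given with exact binomial (Clopper-Pearson) 95% intervals, which, like the floor of 3 counts, cover counting error only. Nothing in the labels states whether libraries came from separate mice beyond the sample numbers. Python 3.11.15 was used for the rest. Positions are from the GENCODE annotation of mm10.

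Named genes were the genes past the test, the 20 with the highest mean CPM, the 4 highest of each list, defining genes of other cell types, the rule's genes and Mlkl. Genes named otherwise (the calls of DESeq2, Igfbp2, those that set mesothelial-positive and mesothelial-low cells apart, the classes by Dpt, Postn and Clec3b, Ctla2a and members of lists below the 4 highest) were chosen after their values were seen. The planned test of mesothelial-gated against fibroblast-gated cells could not be run, since no library had more than 6 mesothelial-gated cells and 10 were required. Of the symbols listed, 2 matched no gene. Alternatives were stricter thresholds of the rule, deeper cells, doublet removal, other normalization and filters, left-out libraries and thinned cells. Some genes and an allele are not reported here.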

Additional observations from a re-analysis of the deposited data

How the results depend on the processing

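No paired analysis was possible because the groups share only replicate number 1 among the libraries used. The share of stromal cells kept its direction in 9 alternatives (0.187 to 0.391 points with 1 library left out), none of which loosened a step of the rule. At the collagen step of the rule alone, OE-Vector 1 had the highest share. The direction for mesothelial-gated cells could not turn, since OE-Vector 1 had none in any of 10 alternatives. The share of mesothelial-positive cells kept its direction in 10 (0.45 to 10.97 points with 1 library left out) and reversed in 2, to -6.69 points with the gate at 3 UMIs and to -8.12 points after thinning to 5000 UMIs (chosen after seeing the data), and the cause was not tested. The count of genes by edgeR was 7 with at least 20 collagen UMIs and 4 with at least 4 UMIs of Eln and Fbln2. It was 0 after doublet removal (456 genes at an unadjusted p under 0.05), 0 in cells with a Y-linked UMI (429), 0 without the cell richest in Il1rl1 (493) and 0 with cells thinned to at most 5000 UMIs (405), the last 3 chosen after seeing the data. DESeq2 called 9 genes, and edgeR without a filter on low counts called 98. Leaving out 1 OE-MLKL library at a time gave 0 to 56 genes, namely 40, 56 and 0 (663 unadjusted) without OE-MLKL 1, 2 and 3. OE-Vector 1 could not be left out of a group comparison. Without OE-MLKL 1 or 2, and without the filter on low counts, edgeR shared the spread between genes almost fully. Those counts therefore take little account of a gene's own spread between libraries. Il1rl1 passed in 10 of 15 alternatives, with log2 fold changes of -6.11 to -3.69. Genes higher in mesothelial-positive cells numbered 14 to 44 and lower ones 36 to 98 with 1 library left out, 44 and 98 being without OE-MLKL 1. The test of mesothelial-gated against fibroblast-gated cells was not run under any alternative. With 47 cells in OE-Vector 1, a count of 0 there allows a level of up to 3.93 CPM.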

Other observations

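Contractile genes of myofibroblasts were present at moderate levels without a difference past the test. Smooth muscle actin (Acta2) was at 245 CPM in OE-Vector 1 and at 139, 440 and 498 CPM in OE-MLKL 1, 2 and 3, and transgelin (Tagln) at 248, 141, 299 and 339 CPM, so OE-MLKL 1 was lowest for both. The transcription factor Osr1, which marks embryonic and injury-activated connective tissue, was at 83.9, 445, 326 and 208 CPM (edgeR adjusted p = 0.878). Gata6, a factor of the mesothelium among other tissues, was at 254, 160, 196 and 252 CPM in all stromal cells, and at 489, 181, 296 and 325 CPM in mesothelial-positive against 87.4, 133, 135 and 195 CPM in mesothelial-low cells, higher in the positive cells of all 4 libraries. Aldh1a2, which makes retinoic acid, was at 221, 62.7, 71.6 and 146 CPM, and apolipoprotein E (Apoe) at 812, 1547, 1688 and 765 CPM. Slpi, a secreted protease inhibitor, was at 1012, 3047, 1048 and 419 CPM.

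Ctla2a, a cysteine protease inhibitor picked after its values were seen, varied widely among the OE-MLKL libraries. It was lower in OE-Vector 1 than in every one of them, as were 24.6% of all genes tested. Stromal cells held 5, 13211, 1851 and 190 of its UMIs, which is 6.55 CPM in OE-Vector 1 and 7085, 2139 and 128 CPM in OE-MLKL. In OE-MLKL 1 these UMIs were spread over 110 of 161 cells, with at most 943 in 1 cell. The log2 fold change was 8.98 (SE 2.40, edgeR adjusted p = 0.772), and the DESeq2 adjusted p was 0.147. The log2 fold change was 7.43 without OE-MLKL 1, 9.21 without OE-MLKL 2, 9.54 without OE-MLKL 3 and 8.995 with no filter on low counts.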
